A study of Mus musculus with 7 samples.

Results

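The regions described here are the 5-methylcytosine (5mC) regions of day 10 ATDC5 cells that the authors assigned to a gene. ATDC5 is a line of mouse cartilage progenitors. Given a supplement of insulin, transferrin and selenite, these cells turn into chondrocyte-like cells. 5mC is the methylated form of cytosine. A region was included when its row of the day 10 5mC list carried a gene symbol, which held for 1665 of the 2401 regions in that list and for 1348 symbols. The other 736 regions of the list carried no symbol and served as a comparison. All 4 lists of the series together held 8949 regions. The 7 samples were genomic DNA of ATDC5 cells: progenitors at day 0 as input DNA and after 5mC enrichment, differentiating cells at day 10 after 5mC enrichment, and cells at days 5 and 10 after enrichment for 5-hydroxymethylcytosine (5hmC), the oxidised form of 5mC made by TET enzymes. All came from this single line in medium with serum and ascorbic acid, and the labels do not say from how many cultures. The 5mC list came from 1 sample and each 5hmC list from 2 merged samples, so no value has a replicate spread. Intervals are 95% Wilson intervals and tests are two-sided Fisher's exact tests, and both cover counting error over regions of a list, not variation between samples. The depth of the libraries is unknown, and the lists give no height or fold for a region. Day 10 is the day in the labels. The study's own list of 5mC regions in chondrocytes, the name it uses for its latest stage, begins with the same regions, so the stage is uncertain.

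In mammals most 5mC lies at CpG, a cytosine followed by a guanine. Most of the genome is poor in CpG and methylated, whereas CpG-dense promoters of active genes, known as CpG islands, are typically free of methylation. Bodies of transcribed genes are usually methylated, and imprinted genes carry methylation on only 1 of the parental copies at their control regions. The kit behind the 5mC samples pulls down double-stranded DNA through 2 proteins that bind methylated CpG together (MBD2b and MBD3L1), which favours DNA rich in methylated CpG.

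The 7 windows below show what the CpG of these regions looked like. They are the 200 bp with most CpG, outside untranslated regions and repeats, in regions at imprinted genes, at the germline gene Tktl2 and in the CpG-densest regions. Each is given on the forward strand of GRCm38, with CpG in capitals. The first window lay at chr15:72809924-72810123 in the noncoding gene Peg13 and held 18 CpG.
Peg13: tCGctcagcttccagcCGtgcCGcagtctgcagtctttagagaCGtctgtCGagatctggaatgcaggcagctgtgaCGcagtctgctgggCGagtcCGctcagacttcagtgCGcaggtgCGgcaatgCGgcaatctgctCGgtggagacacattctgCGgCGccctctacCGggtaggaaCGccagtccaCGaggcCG
The second, at chr15:97055009-97055208 close to the start of the amino acid transporter gene Slc38a4, held 14 CpG.
Slc38a4: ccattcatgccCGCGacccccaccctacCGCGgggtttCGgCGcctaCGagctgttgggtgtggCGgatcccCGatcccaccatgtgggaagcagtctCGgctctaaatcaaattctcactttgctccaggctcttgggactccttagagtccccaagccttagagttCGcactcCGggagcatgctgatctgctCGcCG
Grb10, an imprinted gene for an adaptor that restrains insulin and growth factor signalling, had 6 CpG at chr11:11984435-11984634 within an intron.
Grb10: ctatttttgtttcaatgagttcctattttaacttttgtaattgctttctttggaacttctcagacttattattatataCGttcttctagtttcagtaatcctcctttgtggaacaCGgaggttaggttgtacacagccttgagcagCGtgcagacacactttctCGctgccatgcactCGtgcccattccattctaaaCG
In the imprinted zinc finger gene Zim1, chr7:6677366-6677565 held 9 CpG and lay in coding sequence over all 200 bases.
Zim1: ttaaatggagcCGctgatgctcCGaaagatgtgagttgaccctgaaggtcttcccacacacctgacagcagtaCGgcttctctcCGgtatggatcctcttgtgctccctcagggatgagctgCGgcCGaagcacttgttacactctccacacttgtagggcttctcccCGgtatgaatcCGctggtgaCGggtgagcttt
The coding sequence of Tktl2, a transketolase-like gene of the germline list, held 12 CpG at chr8:66511836-66512035.
Tktl2: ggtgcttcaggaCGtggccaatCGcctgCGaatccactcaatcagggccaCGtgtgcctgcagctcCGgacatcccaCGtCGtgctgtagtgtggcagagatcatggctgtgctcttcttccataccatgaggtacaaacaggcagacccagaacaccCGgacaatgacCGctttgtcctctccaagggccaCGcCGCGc
The 2 densest of these windows were coding as well. One lay at chr5:106457446-106457645 in the homeobox gene Barhl2 and held 20 CpG.
Barhl2: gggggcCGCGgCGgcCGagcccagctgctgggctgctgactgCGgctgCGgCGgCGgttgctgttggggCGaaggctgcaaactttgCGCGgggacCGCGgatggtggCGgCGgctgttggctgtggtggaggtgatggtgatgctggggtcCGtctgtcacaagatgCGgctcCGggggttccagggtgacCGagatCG
The other lay at chr15:5242402-5242601 in Ptger4, which encodes a prostaglandin E receptor, and held 24 CpG.
Ptger4: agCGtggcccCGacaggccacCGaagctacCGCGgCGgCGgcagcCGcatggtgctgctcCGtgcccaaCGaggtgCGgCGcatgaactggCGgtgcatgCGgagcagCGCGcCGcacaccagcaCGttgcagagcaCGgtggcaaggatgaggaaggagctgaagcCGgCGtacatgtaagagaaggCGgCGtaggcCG

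Coding exons stood out among the parts of genes. The midpoint of 404 of the 1665 regions (24.3%, 22.3 to 26.4) lay in a coding exon of a protein-coding gene, and 824 regions (49.5%) touched one. Introns held 970 midpoints (58.3%, 55.9 to 60.6), untranslated or noncoding exons 131 (7.87%, 6.67 to 9.26), and the 5000 bp upstream of a gene 67 (4.02%, 3.18 to 5.08). Only protein-coding genes were used for these parts. A further 93 midpoints (5.59%) lay outside all of them, some in introns of noncoding genes that the authors named. Being at a gene is what the rule used, so the genome is a fair reference only within genes. Of the bases of these regions in genes or their upstream windows, 20.9% were coding, whereas 3.24% of all such bases in the genome are, a ratio of 6.46.

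The 5hmC regions at genes were chosen by the same rule and were less often coding. Midpoints in coding exons made up 3.24% (2.6 to 4.02) of the 2409 day 10 5hmC regions and 6.9% (5.62 to 8.46) of the 1231 day 5 5hmC regions. By Fisher's exact test, adjusted over 4 tests, the share among 5mC regions was higher by 21 percentage points than in day 10 5hmC (adjusted p = 2.39e-94) and by 17.4 than in day 5 5hmC (adjusted p = 1.51e-37). When any coding base counted, these differences were 43.7 and 29.5 percentage points. In the upstream window the order was the other way by the same exact test, with 6.06% at day 10 (adjusted p = 0.00413) and 6.66% at day 5 (adjusted p = 0.00217) against 4.02% for 5mC. Coding bases were 3.61% of the genic bases in the day 10 5hmC regions and 5.13% in those of day 5. Widths differed between these lists, with a median of 1016 bp for the 5mC regions, 148 bp for the day 10 and 831 bp for the day 5 5hmC regions, and the enrichment methods and fold thresholds differed too. Their part in the result was not tested. Among the 124 day 0 5mC regions at genes, 0 had a midpoint in a coding exon (upper bound of the interval, 3%). Those day 0 regions were poor in CpG, with a median of 0.579 per 100 bp, and had a median repeat share of 59.7%.

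**Figure D1:**
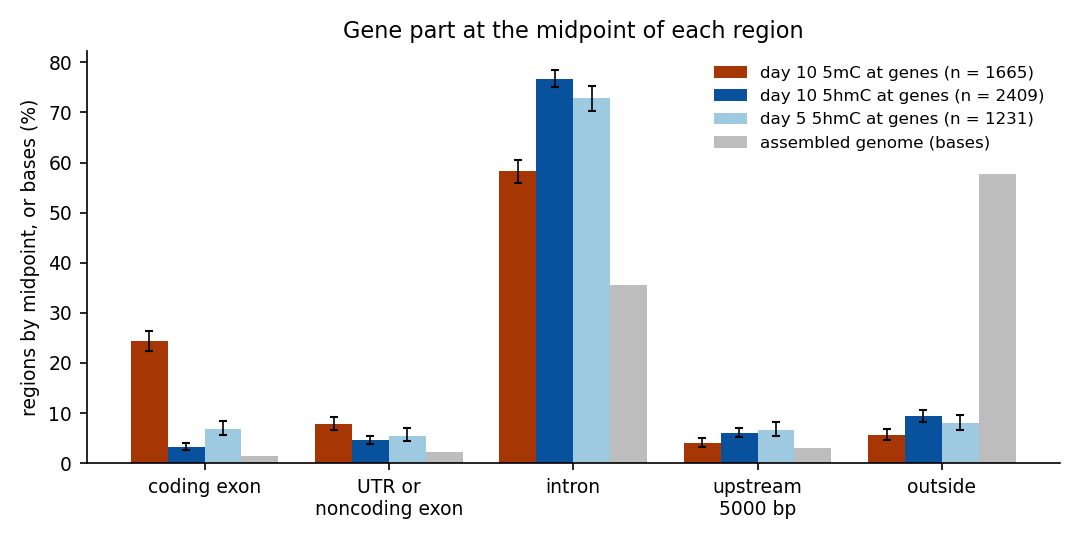
Share of regions (%) whose midpoint lay in each part of a protein-coding gene, for 5mC and 5hmC regions at genes, with 95% Wilson intervals, and the share of assembled bases in grey. The 5mC bar for coding exons stands at 24.3%, above 3.24% and 6.9% for 5hmC. The grey bars count bases of the whole genome (1.37% coding), of which 57.7% lies outside genes and upstream windows. They are not a fair reference for regions chosen at genes.

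CpG density was highest at the region centres too. The regions had a median of 2.49 CpG per 100 bp, against 1.22 in flanks of equal width that began 2000 bp from their edges, and 1508 of the 1665 regions (90.6%) were above their own flanks. The median difference was 1.15 (95% order-statistic interval 1.09 to 1.22), where the whole genome has 0.826 CpG per 100 bp. In the 100 bp right of the midpoints, 23.9% of bases were coding and CpG reached 3.36 per 100 bp. About 2 kb to the right these values were 5.27% and 1.42. The regions without a gene symbol had nearly the same CpG peak, 3.08 per 100 bp in that bin, with 0.452% coding bases. A CpG peak was thus present with and without coding sequence.

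**Figure D2:**
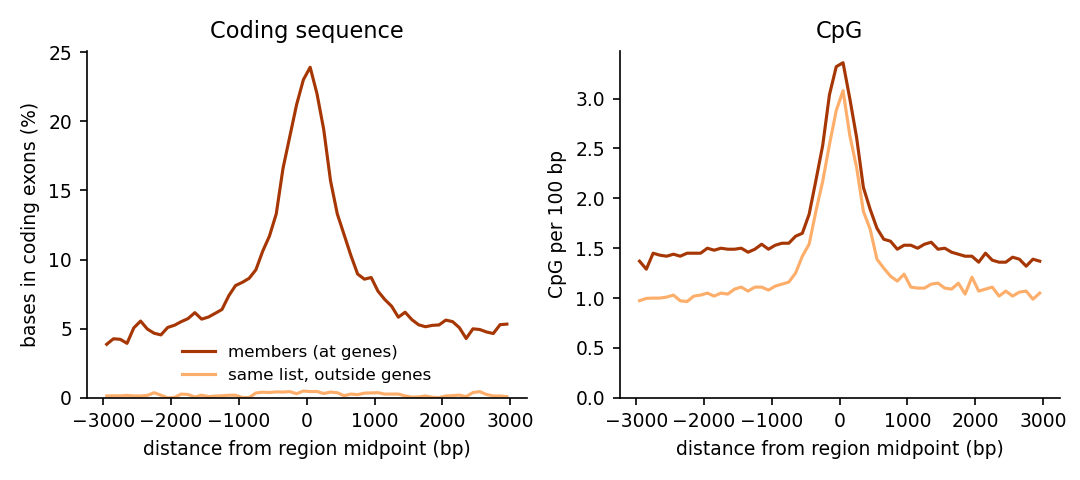
Percentage of bases in coding exons (left) and CpG per 100 bp (right) in bins of 100 bp by distance from the region midpoint (bp), for the 1665 regions at genes and for the regions of the same list without a symbol. At genes the coding share peaks at 23.9% and CpG at 3.36 per 100 bp.

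The coding part carried more CpG than the intron next to it. In 548 regions with at least 100 coding and 100 intronic bases, the median was 4.5 CpG per 100 bp in the coding bases and 1.95 in the intronic bases of the same region. The median difference was 2.58 (2.42 to 2.79), and the coding bases were the denser in 505 of the regions (92.2%). Coding exons of all protein-coding genes had 2.38 to 3.48 CpG per 100 bp by length class, where the whole genome has 0.826. A denser coding part is thus not particular to these regions, and the same comparison outside them was not made. The share of regions with a coding midpoint went up with the CpG of the region, from 0 of 68 regions with under 1 CpG per 100 bp and 6.92% of the 390 regions with 1 to 2, to 42.6% of the 338 regions with 3 to 4 and 60.2% of the 133 regions with 4 to 6. Coding bases enter both measures, which are not independent.

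Long exons were met more often than short ones. Of 170254 coding exons under 200 bp, 106 (0.0623%) held a midpoint, compared with 100 of 2351 exons of 1000 to under 2000 bp (4.25%, 3.51 to 5.15) and 55 of 750 exons of 2000 bp and over (7.33%, 5.68 to 9.42). Per megabase of coding sequence these are 5.66, 31.6 and 24.8 midpoints. Day 10 5hmC midpoints had no such order, with 2.4 per megabase in the shortest class and 0.313 in exons of 1000 to under 2000 bp. That long class holds only 3.19 megabases and day 10 5hmC had 78 coding midpoints in all, so its density there rests on very few. Exons with a 5mC midpoint had a median length of 661 bp, against 124 bp for all coding exons. In genes with several coding exons, 50.6% of the exons hit were the longest of their gene, while the longest exons hold 28.8% of coding bases, and 25.7% were the last, which hold 14.7%.

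Within the long exons, those of middle CpG density were met most. Among exons of at least 1000 bp, a midpoint lay in 5 of 1255 with under 2 CpG per 100 bp (0.398%) and in 35 of 724 with 2 to 3 (4.83%). The share was 14.7% (11.8 to 18.2) of the 470 exons with 3 to 4 and 12.2% (9.15 to 16.2) of the 335 exons with 4 to 6. It was 1.58% (0.676 to 3.64) of the 317 exons with 6 and over. Promoters were examined as 32585 RefSeq windows, each from 250 bp before to 50 bp after a start. A region overlapped 58 of them (0.178%), a day 10 5hmC region 37 (0.114%) and a day 5 5hmC region 75 (0.23%). Exons were counted by midpoints and windows by any overlap, so these levels are not comparable with those of exons. The share of windows with a 5mC region was 0.0532% below 1 CpG per 100 bp, 0.544% (0.382 to 0.776) from 2 to 4, and 0.0513% (0.0219 to 0.12) at 6 and over, the class of CpG islands, where 5 of 9741 windows were overlapped.

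**Figure D3:**
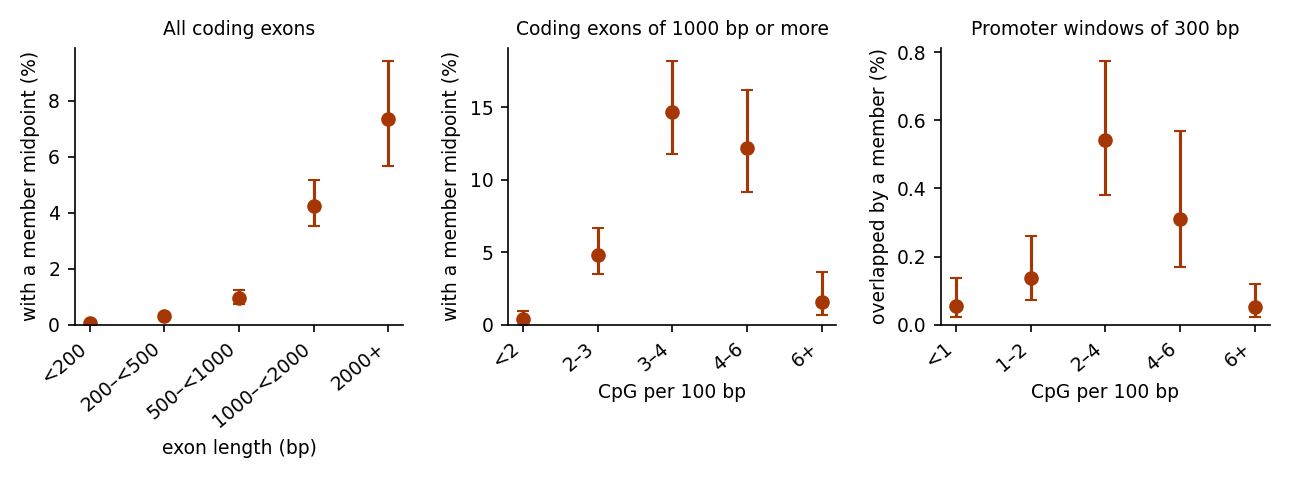
Percentage of coding exons with a region midpoint by exon length (left), the same for exons of 1000 bp or more by CpG density (middle), and percentage of promoter windows overlapped by a region by CpG density (right), with 95% Wilson intervals. The middle and right plots are highest in the middle classes, at 14.7% and 0.544%.

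The long exons that held 2 midpoints lay in Ttn, Fat1, Zbtb38 and Map3k1. Fat1, which encodes a giant cadherin, had 6 regions, of which 5 had a coding midpoint, and together they covered 7771 coding bases of its transcript. The widest of them (chr8:44950020-44952797, 2778 bp) covered 2584 coding bases near the start of the gene with 4.39 CpG per 100 bp, against 1.28 in its flanks. The next 2 lay side by side in its longest exon (4068 bp), at chr8:45022806-45024463 and chr8:45024644-45026746, and were coding throughout. Titin (Ttn), the spring protein of striated muscle with 347 coding exons by the annotation, had 9 regions, more than any other symbol. All 9 touched coding sequence, 2 of them only in transcripts other than the one the authors named, and 2 lay in its 17106 bp exon and 2 in an exon of 5459 bp. Their CpG ranged from 1.75 to 3.71 per 100 bp. Zbtb38, a zinc finger protein that binds methylated CpG, had 2 regions of 1360 and 1600 bp in its single coding exon of 3591 bp and another in an intron.

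Other CpG-rich coding regions fell on genes of several kinds. These regions had an observed over expected CpG ratio of at least 0.6 and a GC content of at least 50%, and they were chosen here for their coding length after the values were seen. The planar polarity cadherin Celsr2 had 2099 coding bases at 5 CpG per 100 bp (flanks 1.36). Celsr1, its paralogue, had 1203 coding bases at 5.15, and there the flanks were higher, at 6.11. The volume-regulated anion channel subunits Lrrc8a, Lrrc8b and Lrrc8d had 1599, 1328 and 2095 coding bases, at 5.25, 4.67 and 4.06 CpG per 100 bp. Disp1, which releases Hedgehog ligands from cells, had 1842 coding bases at 5.48. Desmoplakin (Dsp), the splicing factor gene Srrm2 and the kinase scaffold gene Akap12 had 1745, 1636 and 1221 coding bases. Each of these regions except that of Celsr1 was above its flanks. Genes with 1 coding exon were met about as often as others: 37 of 2060 (1.8%) when chemoreceptors are left out, and 343 of 18328 genes with several coding exons (1.87%). Of 1312 chemoreceptor genes with 1 coding exon, 1 was met (0.0762%).

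**Figure D4:**
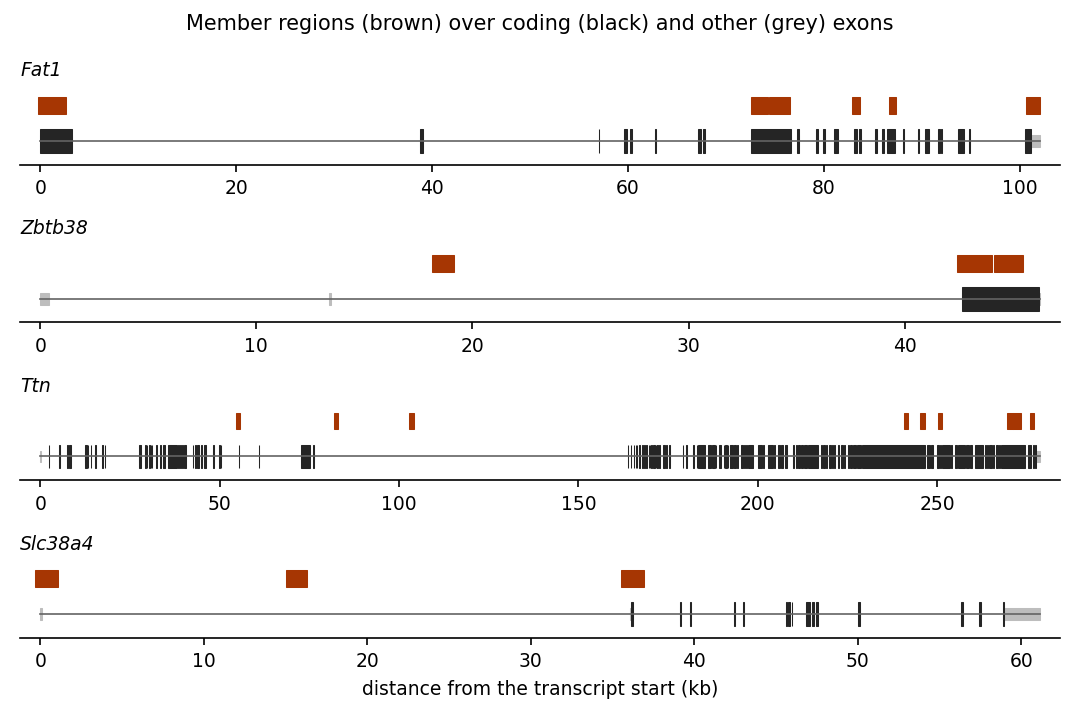
Regions (brown) along 4 genes by distance from the transcript start (kb), over coding exons (black) and other exons (grey). Exons are those of the transcript the authors named. Fat1 and Zbtb38 each have 2 regions on their longest coding exon, the 9 regions of Ttn lie in 2 groups with up to 138 kb between neighbouring starts, and those of Slc38a4 include 1 at the start.

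Most genes had a single region. Of the 1348 symbols, 1137 (84.3%) had 1 region and 211 had 2 or more, and those 211 held 528 regions. After Ttn came Fryl with 8 and Atrnl1 and Fat1 with 6 each, and 8 symbols had 5. Genes with several regions were not all of the Fat1 kind. In Fryl, the mouse homologue of a fly protein of cell shape, 6 of the 8 regions touched coding exons but 6 midpoints lay in introns. The 5 regions of Mast4, a microtubule-associated kinase, had their midpoints in introns and touched no coding base over 602 kb of transcript. Those of Pde4d, a cAMP phosphodiesterase, and of Tcf7l2, a transcription factor of WNT signalling, had 5 midpoints each in introns of the authors' transcripts. Map2k6, a kinase upstream of p38, had 4 intronic and 1 coding. Dst, which encodes the cytoskeletal linker dystonin, had 5 regions that all touched coding exons of the annotation. All 5 midpoints lay in introns of the authors' transcript, and 1 region of 1322 bp was coding over its whole length only in other transcripts.

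Long genes carried regions more often. A region was assigned to 1286 of 21924 protein-coding genes, or 5.87%, which is the background for the gene lists below. The share was 1.69% of genes under 10 kb, 4.73% from 10 to 50 kb, 9.91% from 50 to 100 kb, 16.4% from 100 to 200 kb and 22.9% (20.4 to 25.6) above 200 kb. The median length was 64.9 kb for genes with a region and 17.4 kb for all protein-coding genes. When the authors' transcripts were cut into 10 equal parts, the last part held 220 midpoints and the first 121, of 1430 that lay inside. Coding midpoints numbered 75 in the last part and 25 in the first, whereas intronic midpoints numbered 87 and 94.

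Transcription starts were seldom covered. Of the 1576 regions whose RefSeq transcript could be placed, 25 (1.59%) had their midpoint within 500 bp of its start, 53 (3.36%) within 1000 bp and 268 (17%) within 5000 bp. The median distance was 28.2 kb, in transcripts with a median length of 66.3 kb. The share near a start that such lengths alone would give was not computed, so avoidance of starts is not shown. Trhde, an enzyme that degrades thyrotropin-releasing hormone, had a region of 1393 bp with 5.38 CpG per 100 bp (flanks 1.01). Its midpoint lay 129 bp upstream of the start, which the region covered. Klf14, a Kruppel-like factor, had a region of 887 bp with its midpoint 422 bp upstream and 4.96 CpG per 100 bp (flanks 0.564). Foxb2 had a region over its start with 5.31, and Hist1h2aa, a histone H2A gene, one with 4.34. Yy2, a retroposed relative of the transcription factor Yy1 on the X chromosome, had 4.33 CpG per 100 bp against 0.266 in its flanks. Ppp3r2, a calcineurin subunit gene, and the olfactory receptor gene Olfr750 had 3.24 and 3.46. These 7 genes were chosen from the 25 after their values were seen, and all but Ppp3r2 and Olfr750 are among the denser ones. At the other end, the region of Srek1, with its midpoint 83 bp upstream of the start, had 1.23 CpG per 100 bp (flanks 1.17). That of Chrna9, a nicotinic receptor subunit gene, had 2.01 (flanks 1.35), and that of Pik3cd, a PI3-kinase subunit gene, 2.26 (flanks 1.75).

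Regions purely in introns of protein-coding genes had less CpG but were still mostly above their flanks. There were 611 (36.7%) without any exonic or upstream base of a protein-coding gene. Exons of noncoding genes were not counted as exons here. Their median CpG was 2.12 per 100 bp against 1.16 in the flanks, a median difference of 0.892 (0.804 to 0.948), and 538 of them (88.1%) were above. Regions with a coding midpoint had a median of 3.19 against 1.22, and those in the upstream window 2.2 against 1.44, where 61.2% were above. CpG-rich regions by the criteria above made up 13.1% of those with a coding midpoint and 2.16% of those with an intronic one.

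Compared with the 736 regions of the same list without a symbol, those at genes were poorer in repeats. Over 50% of the sequence was repeat in 60 of 1665 regions at genes (3.6%, 2.81 to 4.61) and in 108 of 736 without a symbol (14.7%, 12.3 to 17.4), a difference of -11.1 percentage points (Fisher's exact test, adjusted p = 7.09e-20 over 5 tests). CpG-rich regions were 5.41% (4.42 to 6.6) and 3.12% (2.09 to 4.65) by the same exact test (adjusted p = 0.0264), a difference of 2.28 percentage points that was 6.76 when each region was cut to the 200 bp around its midpoint. A width of at least 1000 bp was met by 52.8% and 46.3% (Fisher's exact test, adjusted p = 0.00998). The sets were divided by the gene symbol itself, and the repeat and CpG content of genic and other DNA in the genome was not compared. The tests thus do not show that the differences in repeats and CpG are particular to 5mC regions. Reads from repeats and from near-identical gene copies are hard to place, so regions there are uncertain. The widest region, 6420 bp at the ribosomal RNA gene Rn45s, which exists in many copies, had the most CpG (9.38 per 100 bp), and a 2325 bp region in Bptf, a subunit gene of a chromatin remodeller, was marked as repeat over 100% of its length, with 5.29 CpG per 100 bp.

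Few regions shared their place with 5hmC. A day 10 5hmC region overlapped 10 of the 1665 (0.601%, 0.327 to 1.1) and a day 5 region 14 (0.841%, 0.502 to 1.41). Among regions without a symbol the numbers were 10 of 736 (1.36%, 0.74 to 2.48) and 9 of 736 (1.22%, 0.645 to 2.31). Fisher's exact test did not show a difference (adjusted p = 0.106 and 0.371). The 5hmC lists held 4164 regions at day 10 and 2058 at day 5. The overlap that position alone would give was not computed, so these low shares do not show that the marks avoid each other. The 5 longest overlaps with day 10 5hmC were at Myc (850 bp), Rn45s (830 bp), Ano2 (345 bp), Kif14 (199 bp) and Zfp821 (146 bp), and each spanned the whole 5hmC region. At the proto-oncogene Myc the 5mC region (chr15:61987205-61990617, 3413 bp) covered 1332 coding bases, and 1355 bp of it were shared with a day 5 5hmC region. Ano2, an anion channel gene, and Zfp821 were shared in introns with 0.39 and 1.23 CpG per 100 bp, below their flanks at 0.91 and 1.77. Kif14, a mitotic kinesin gene, was shared in an upstream window.

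At the level of genes, 331 of the 1348 symbols (24.6%) also had a day 10 5hmC region, which is 19.2% of the 1728 symbols in that list, and 209 (15.5%) had a day 5 one, 19.6% of 1068. Counted over protein-coding genes, 25% (22.7 to 27.4) of the 1286 with a 5mC region had day 10 5hmC, beside 15.3% for genes of the same length classes and 7.35% of all, and 15.6% (13.7 to 17.7) had day 5 5hmC, beside 9.29% and 4.58%. There were 139 symbols in all 3 lists, and 947 (70.3%) had neither 5hmC list. Where a gene had both marks they usually lay far apart. The median gap from a 5mC region to the nearest 5hmC region of the same symbol was 29.1 kb at day 10 and 35.3 kb at day 5, and 4.16% and 6.71% of such regions were within 1000 bp. The gap that position alone would give in genes of such length was not computed, so these gaps do not show that the marks keep apart. Long genes are more likely to be in any of these lists. Of the 123 symbols with day 0 5mC, 18 also had a day 10 5mC region. Of all protein-coding genes 5.87% had one, but the symbols were not matched to these by length or gene type, so no excess is shown. Regions shared with day 0 5mC numbered 0, which allows a share of regions up to 0.18%. The day 0 list held only 326 regions, and the overlap that position alone would give was not computed.

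Genes of cartilage were examined as 2 lists. Of 54 regulators of cartilage, 9 had a region (16.7%, 9.02 to 28.7). Genes of the same length classes gave 10.8%, which lies within that interval. The transcription factor genes Runx2 and Sox5 were met in introns only: Runx2, needed for hypertrophy and bone formation, at chr17:44671571-44672512 with 1.7 CpG per 100 bp (flanks 0.637), and Sox5, a partner of Sox9, at 2 places with 2.49 and 1.56 (flanks 1.41 and 1.26). Runx3 had its midpoint in a coding exon, with 3.47 against 5.42 in flanks, the only one of the 11 regions of this list that was below its flanks. Tgfbr2, the type II TGF-β receptor, had a region with 800 coding bases (chr9:116109347-116110509) and 3.44 CpG per 100 bp, against 0.86 in flanks. Fgfr1 and Fgfr2, receptors for fibroblast growth factors, had 186 and 78 coding bases within regions of 3.7 and 2.74 CpG per 100 bp. Igf1r, the IGF-1 receptor, had 2 regions 231 and 244 kb from its start with 215 and 160 coding bases. The BMP receptor Bmpr1b was met in an intron with 0.893 (flanks 0.714), and so was Creb5, under the authors' symbol 9430076C15Rik, with 2.02 (flanks 0.923).

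Of 56 matrix genes 4 had a region (7.14%, 2.81 to 17), beside 6.37% for genes of the same length classes. Fibronectin (Fn1) had 183 coding bases in a region of 2.71 CpG per 100 bp, and osteopontin (Spp1), a phosphoprotein of bone and mineralising cartilage, had 282 coding bases with 1.85. The fibrillar collagen gene Col27a1 was met in an intron with 1.6 and the protease inhibitor gene Cst6 upstream, 1.97 kb before its start, with 2.05. All 4 were above their flanks, at 2.2, 0.98, 0.847 and 0.93. Of 44 collagen genes, 5 had a region, at Col22a1 (2 regions), Col24a1, Col26a1 (under the symbol Emid2), Col27a1 and Col6a6, with 0 coding midpoints among 6 regions. Genes of their length classes gave 13.1%, against 11.4% (4.95 to 24) here.

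Imprinted genes had regions at 7 of 58 (12.1%, 5.97 to 22.9), beside 8.12% for genes of the same length classes. The region at Peg13 (chr15:72809066-72810424), whose window is printed above, had 5.22 CpG per 100 bp against 1.25 in flanks, with its midpoint 579 bp from the start of that noncoding RNA, which lies in an intron of Trappc9. Trappc9 itself, a trafficking gene, had 2 more regions with 1.92 and 2.78. Slc38a4 had 3 regions: at its start (372 bp, 3.87 CpG per 100 bp), 15.7 kb into the gene (2.75) and 36.2 kb into it (2.45), all above their flanks. The region in Zim1 was 96.1% coding with 3.32 CpG per 100 bp against 0.375. Sgce, the ε-sarcoglycan gene, had 1.54 (flanks 1.2), Grb10 2.02 (flanks 0.939), and the region assigned to Peg10, a retrotransposon-derived gene next to Sgce, lay downstream of Peg10 with 0.584, equal to its flanks. Of 50 germline genes, which are methylated and silent in somatic cells, 1 had a region (2%, 0.354 to 10.5), beside 5.83% for genes of the same length classes. It was Tktl2, where a region of 1873 bp covered 1837 coding bases with 3.52 CpG per 100 bp, against 0.587 in its flanks.

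Among 30 genes of DNA methylation and the TET pathway, 4 had a region (13.3%, 5.31 to 29.7), with 6.89% for genes of the same length classes. Besides Zbtb38 they were Tet1, Kdm2b and Mbd2. Tet1, which oxidises 5mC, was met in an intron with 1.17 CpG per 100 bp (flanks 0.924). The CpG-binding histone demethylase gene Kdm2b was met in an intron with 0.916, equal to its flanks. The methyl-CpG binding protein gene Mbd2 had 1.31 and 1.29.

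Gene families were described by how many genes had a region and where its midpoint lay. Of 391 zinc finger Zfp genes, 27 had a region (6.91%, 4.79 to 9.86), beside 5.3% for genes of the same length classes. Of their 30 regions, 18 (60%) had a coding midpoint, beside 24.3% of all regions. Zfp12, Zfp334 and Zfp518b each had a region that was coding over its whole length, of 1182, 1175 and 994 bp, with 4.57, 4.94 and 3.82 CpG per 100 bp. Zfp1 and Zfp239 had 771 and 603 coding bases, while Zfp148, Zfp366 and Zfp407 had intronic midpoints, Zfp300 lay near its start, and Zfp462 had 2 regions at its 3′ end. Zinc finger genes have near-identical repeats and paralogues, so their reads may be misplaced. Potassium channel genes had 16 of 93 (17.2%, 10.9 to 26.1), beside 8.87% for their length classes, and 8 of 18 midpoints were coding. Examples are Kcnd2 and Kcnd3, which encode A-type channels, with 957 and 823 bp that were coding throughout and 3.87 and 4.62 CpG per 100 bp. Kcnc2 and Kcnh1 had 605 and 474 coding bases, Kcnab2 and Kcnh3 2 regions each, Kcnh8 an intronic one, and Kcna5 and Kcnf1 regions 6.16 and 7.26 kb before their starts.

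Developmental transcription factor genes of the Hox, Pax, Irx, Tbx, Fox and related families had 11 of 151 (7.28%, 4.12 to 12.6), beside 3.8% for their mostly short length classes, with 0 coding midpoints among 16 regions. Their median CpG was 3.7 per 100 bp, against 1.76 in flanks. Foxd3, a factor of neural crest, had 5.88 CpG per 100 bp at 2.75 kb before its start, below its flanks at 7.57. Irx1 had 3 regions with 3.53 to 4.6, Foxb2 2 with 4.56 and 5.31, and Foxp1 3 with 1.03 to 3, 2 of them in its 3′ untranslated region. Pax5 and Hoxd4 were met in introns with 4.27 and 3.88. The midpoint at Pax6 (3.38) lay in an untranslated or noncoding exon of the annotation, which is intronic in the authors' transcript. That region covered a promoter window at another Pax6 start. Hoxb9 was met 1.79 kb before its start with 3.51, Tbx3 8.26 kb before its start with 3.22, and Pax8 in an intron with 1.03. Of 67 protocadherin genes 6 had a region (8.96%, 4.17 to 18.2; length classes 10.1%), a count that was 25 when genes were assigned by position, since the clustered genes overlap. Of the 6 regions 4 had coding midpoints, Pcdh7 having 622 bp that were coding throughout and 6.11 CpG per 100 bp. Of 96 cytosolic ribosomal protein genes 1 had a region (Rps10, 3.85 kb before its start), or 1.04% (0.184 to 5.67), beside 2.77% for their length classes. Of 1134 olfactory receptor genes 4 had a region (0.353%, 0.137 to 0.903; length classes 2.08%). No symbol of the 13 genes of the mitochondrial chromosome was given to a region, but by position a region of the list without a symbol fell on 10 of them.

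**Figure D5:**
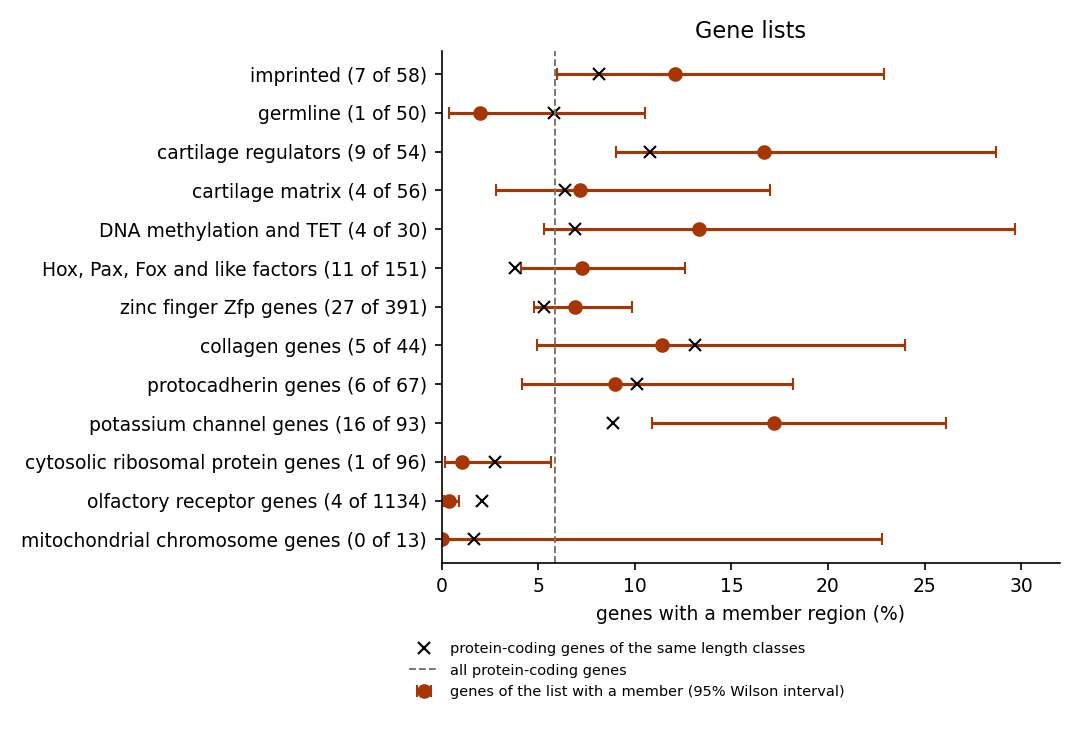
Percentage of the genes in each list with a region (points, 95% Wilson interval), beside the percentage for protein-coding genes of the same length classes (crosses) and for all protein-coding genes (dashed line, 5.87%). The intervals of the potassium channel and the Hox, Pax and Fox lists lie above their crosses, and that of the olfactory receptors lies below.

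Chromosomes were unevenly represented. Chromosome 5 had the most regions (217), and chromosomes 19, 5 and 10 had the most per megabase, at 1.75, 1.47 and 1.09. The lowest autosomes were 12, 14 and 7 with 0.188, 0.247 and 0.289, and the X chromosome had 9 regions, or 0.055 per megabase. Regions of the same list without a symbol had 0.533 per megabase on chromosome 19, 0.514 on chromosome 5, 0.103 on chromosome 12 and 0.0245 on the X. Day 10 5hmC regions at genes had 1.61, 1.66, 0.308 and 0.0979 per megabase on those chromosomes. Per 1000 protein-coding genes, chromosome 5 had 172 regions and chromosome 7 had 20.3. The number of copies of each chromosome in the cells was not measured here.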

How the data were processed

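The data were lists of regions of genomic DNA from ATDC5 cells. Per the study's methods, DNA was enriched for 5mC with a methyl-CpG binding protein kit (MIRA) or for 5hmC by glucosylation and biotin capture, and single-end reads were quality checked (FastQC), trimmed (Cutadapt), aligned to GRCm38 with BWA, filtered on mapping quality and passed to MACS 1.4.2 for peak calling at default settings. The deposited files give only a chromosome, start, end, symbol and accession; per the file headers they hold regions of at least 3-fold (5mC) or 10-fold (5hmC) enrichment. The control of the peak calling is not stated, and the study's methods describe it as a search for gain or loss between progenitors and chondrocytes, so a list may hold differences rather than all sites of a mark. Depth is unknown, and the input sample was not analysed here.

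Regions were placed on GRCm38 (soft-masked RefSeq sequence, GENCODE release 21), after checking that all of them lay within its chromosomes. Of the 1665 symbols or accessions, 1656 matched the annotation. The midpoint decided the part of a protein-coding gene, in the order coding exon, other exon, intron, upstream 5000 bp. CpG was compared with flanks of equal width that began 2000 bp from the edges. Start distances used the RefSeq transcript of the authors' accession. Shares were compared with Fisher's exact test and Benjamini-Hochberg adjustment in 2 families of 5 and 4 tests, and intervals are 95% Wilson intervals, in Python 3.11.15 with scipy 1.17.1. The scripts were tested on simulated data. For gene lists, all protein-coding genes gave the background, and genes in 5 length classes, weighted as in the list, gave a second one. The regions and the gene lists were chosen with earlier results of these data known. The genes named were up to 10 of each list with a region, in symbol order, the 10 symbols with most regions and ties, the 5 widest regions, the 5 with most CpG and the 5 with the longest overlap with day 10 5hmC, and others were named as examples after their values were seen. A gene that this rule gave is not reported here. Of the 200 bp windows that the rule gave, 7 were printed. Other settings concerned the gene set, the upstream length, the overlap rule, the flanks, repeats, width, merging and the ribosomal RNA region.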

Additional observations from a re-analysis of the deposited data

How the results depend on the processing

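No result changed its direction, and each of the 9 Fisher's exact tests kept its side of the 0.05 threshold under the settings tried. No paired analysis was possible because each deposited 5hmC list pools its numbered samples and 5mC had 1 sample, and for the same reason no sample could be left out. A stricter threshold could not be applied, since the lists hold no fold. When a region was assigned by any overlap, coding exon first, the shares were 49.5% coding, 5.35% other exon and 36.7% intron. Among regions of at least the median width, 26.7% of midpoints were coding and 55% intronic. With all annotated genes, 9.85% were in other exons and 3.24% outside, and with an upstream window of 2000 bp, 1.92% were upstream and 7.69% outside. Flanks at 10000 bp gave a CpG difference of 1.26 per 100 bp. A 500 bp window with stricter criteria gave 9.31% CpG-rich regions. If at least 50% of both regions had to be shared, 0% overlapped a day 10 and 0.3% a day 5 5hmC region. Assigning genes by position gave 25 in place of 6 protocadherin genes, whose clustered genes overlap, and 10 in place of 0 mitochondrial genes, from a region without a symbol. Differences between sets of regions moved by over 1.5 times in 3 cases: with any overlap, the coding share minus that of day 10 5hmC was 43.7 in place of 21 percentage points and minus that of day 5 5hmC 29.5 in place of 17.4, and with 200 bp windows the CpG-rich share minus that of regions without a symbol was 6.76 in place of 2.28. In the remaining settings, shares and medians moved by less than their interval, and counts and differences by less than 1.5 times. Unknown depth, a single sample and an unstated control limit all values: absence of a region does not show absence of 5mC.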
